A study of Mus musculus with 8 samples.

Results

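YAP target genes are genes whose transcription is raised when the coactivators YAP and TAZ enter the nucleus and bind TEAD transcription factors. The 10 genes followed here were Ccn1 (also called Cyr61), Ccn2 (Ctgf), Areg, Tgfb2, Crim1, Axl, F3, Ankrd1, Ajuba and Arhgef17, chosen by name from the 53700 genes of the count table. Of these, 9 were among the 13933 genes with enough counts to be tested, and Ccn2 was not. RNA-Seq had been performed on LLC cells, a mouse Lewis lung carcinoma line, either WT or FIH-KO. The FIH-KO cells were made with a CRISPR/Cas9 guide against exon 2 of Hif1an, the gene for FIH, and expanded after single-cell dilution, so that genotype and clone cannot be told apart. Each line was kept for 16 hours in normoxia (21% O2) or in hypoxia (1% O2), which gave 4 groups of 2 libraries, and the labels name no other agent. The labels do not say whether the 2 libraries of a group came from separate cultures, so the p values measure only the spread between these libraries, which may be technical.

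FIH is an oxygen-dependent asparaginyl hydroxylase that restrains the transcriptional activity of HIF. In the Hippo pathway, a cascade of MST and LATS kinases phosphorylates YAP and TAZ and keeps them in the cytoplasm, and angiomotin, the product of Amot, also binds YAP and can retain it there. Released YAP and TAZ act with TEAD factors on genes for secreted growth factors, receptors and cytoskeletal regulators, and are known for driving the growth of lung and other carcinomas. The design asks whether the loss of FIH changed the mRNA of such genes in either oxygen condition, and whether oxygen itself did.

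Library totals ran from 14519731 to 18177016 counts. Normalized counts are given as CPM, counts divided by the library total and its TMM factor and put on a per-million scale, and a log2 fold change is FIH-KO over WT or hypoxia over normoxia unless stated, with its standard error (SE) where given. Each test of a member was repeated under up to 15 alternatives of tool, normalization, filter and libraries in the fit. Hif1an, the targeted gene, was at 82.3 to 90.2 CPM in the 4 WT libraries and at 34.8 to 51.0 CPM in the 4 FIH-KO libraries. Within each group the 2 libraries were farther apart than counting noise allows, as a chi-square divided by its degrees of freedom shows, from 5.66 in WT normoxia to 23.3 in FIH-KO hypoxia. Of the markers of lung epithelium (Nkx2-1, Sftpc and Scgb1a1), 3 of 3 held 3 counts or fewer in every library, and 2 of them held 0 in all libraries. Of the 5 epithelial markers, Epcam was at 0 throughout and Cdh1 held 1 count at most. Their sum, mainly Krt8 and Krt18, was 326 to 352 CPM in WT and 436 to 538 CPM in FIH-KO normoxia, and 226 to 283 and 334 to 447 CPM in hypoxia. Krt8 rose in FIH-KO cells by 1.02 in normoxia and 1.00 in hypoxia on the log2 scale (edgeR, adjusted p = 0.00066 and 0.00083), and Krt18 and Krt19 did not pass the test. The 4 mesenchymal markers, Vim, Cdh2, Zeb1 and Fn1, summed to 4420 to 6040 CPM in WT libraries and 8280 to 11100 CPM in FIH-KO libraries. This sum was mainly Vim and Fn1, which were called higher in FIH-KO cells in both oxygen conditions, and Cdh2 and Zeb1 passed in neither. Both sums moved with genotype alongside the genes below, and their part in those values was not tested. Summed leukocyte markers stayed between 2.7 and 7.18 CPM, with 2 of 4 genes at 0 in every library, and endothelial markers between 0.179 and 2.41 CPM (1.77 to 2.41 in WT hypoxia, 0.325 to 0.437 in FIH-KO hypoxia) with none of 3 at 0 throughout. Fibroblast markers, none of 4 at 0 throughout, summed to 28.4 to 28.9 CPM in WT and 20.7 to 24.1 CPM in FIH-KO normoxia. In hypoxia these sums were 15.5 to 24.4 and 9.12 to 17.4 CPM. Pdgfra, most of the sum, was lower in FIH-KO than in WT cells in hypoxia (log2 fold change -0.87, adjusted p = 0.032, edgeR). Col1a1 and Dcn had positive values that did not pass the test. The part of these markers in the values below was not tested either.

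FIH loss did not move the YAP target genes in one direction. In normoxia, Ankrd1, Areg and Tgfb2 fell, Crim1 and Arhgef17 rose, and Ccn1, Axl, F3 and Ajuba did not pass the test. The same 3 genes fell and the same 2 rose in hypoxia. In such bulk RNA, fewer cells expressing a gene and less mRNA per cell cannot be told apart. Thus 3 of 9 tested genes fell in normoxia against 13% of all tested genes, and 2 of 9 rose against 15.2%. In hypoxia 3 of 9 fell against 13.9% of all tested genes, and 2 of 9 rose against 14.1%. The median log2 fold change of the 9 genes was -0.173 in normoxia and -0.248 in hypoxia, beside -0.00251 and -0.0321 over all tested genes. The median was thus slightly below 0 while its members ran from a 4.01-fold decrease for Tgfb2 to a 1.84-fold increase for Crim1 in normoxia.

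**Figure D1:**
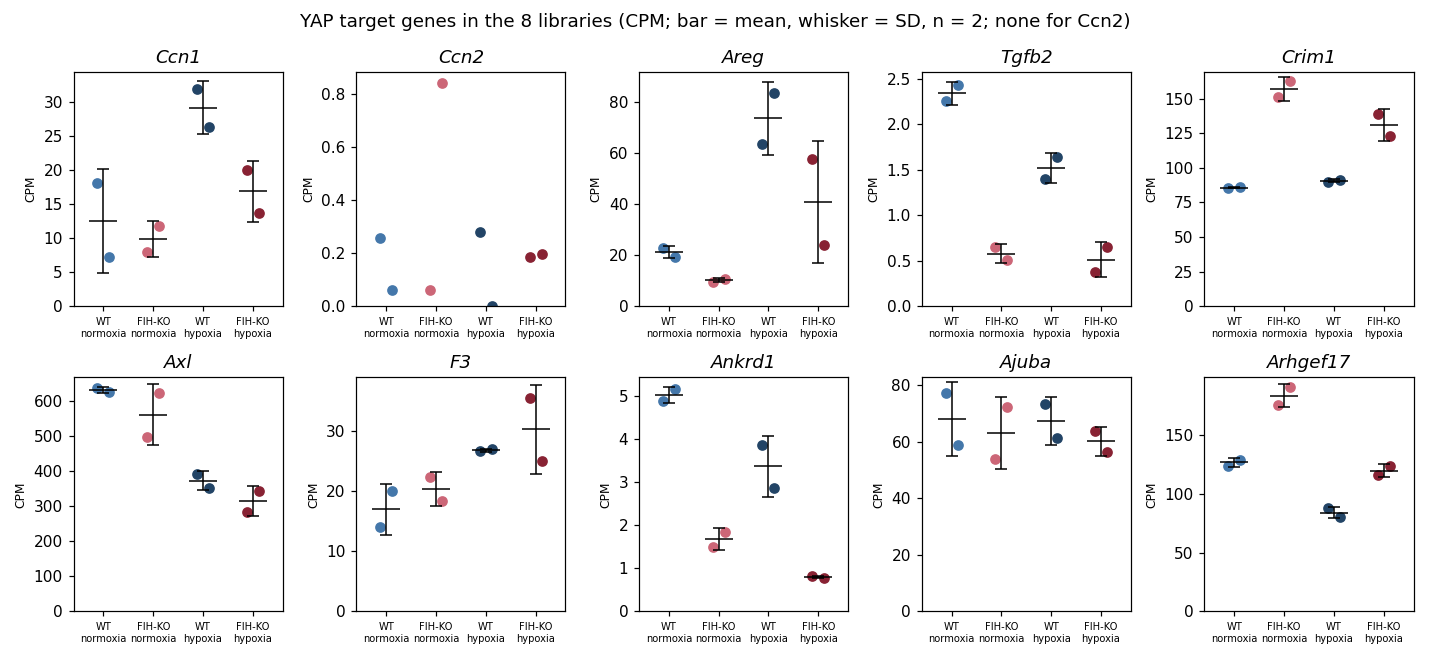
Normalized counts (CPM, vertical axis from 0, scaled separately for each gene) of the 10 YAP target genes in the 8 libraries, in the order WT normoxia, FIH-KO normoxia, WT hypoxia and FIH-KO hypoxia. Points are libraries, bars are means and whiskers are SD of 2 libraries (not drawn for Ccn2). Ankrd1, Tgfb2 and Areg sit lower in FIH-KO than in WT libraries at each oxygen level, Crim1 and Arhgef17 sit higher, and Ccn2 holds 15 counts at most.

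The genes differed widely in level. On the TPM scale, which divides counts by the length of the merged exons and scales every library to the same total, Axl was the most abundant in WT normoxia at 329 ± 2.05 TPM (SD, n = 2). Ajuba followed at 85.7 ± 16 TPM and Areg at 83.0 ± 8.65 TPM, and these neighbours did not differ beyond their spread. Crim1 came next at 59.2 ± 0.672 TPM and Arhgef17 at 53.9 ± 1.88 TPM, whose libraries did not overlap. Ccn1 at 29.7 ± 17.8 TPM and F3 at 26.3 ± 6.67 TPM overlapped. At the low end were Ankrd1 at 8.05 ± 0.361 TPM, Tgfb2 at 1.79 ± 0.109 TPM and Ccn2 at 0.237 ± 0.208 TPM (SD, n = 2 each). The genes that fell in FIH-KO cells thus included 2 of the 3 with the lowest levels per length. In WT hypoxia, Areg was at 298 ± 68.4 TPM and Axl at 200 ± 7.7 TPM (SD, n = 2 each). With the longest annotated transcript as the length, Axl in WT normoxia was at 462 TPM and Areg at 58.9 TPM, and Axl was the highest there. In WT hypoxia that length turned the order of the top pair, with Axl at 282 ± 10.7 TPM and Areg at 213 ± 48.9 TPM (SD, n = 2 each).

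Among the members that encode secreted factors, Ccn2 could not be followed. Ccn2 encodes connective tissue growth factor, a matricellular protein often used as a readout of YAP activity. WT normoxia libraries held 4 and 1 counts, FIH-KO normoxia libraries 1 and 15, WT hypoxia libraries 5 and 0, and FIH-KO hypoxia libraries 3 and 3. FIH-KO hypoxia was at the floor of 3 counts per library, only replicate 2 of FIH-KO normoxia exceeded 5, and the groups overlapped. A count of 0 still allows up to 3 counts, so a difference was not detectable at this depth and no fold change is given.

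Ccn1 encodes CYR61, a matricellular ligand of integrins and another common readout of YAP. WT normoxia libraries were at 18.1 and 7.23 CPM and FIH-KO normoxia libraries at 7.98 and 11.8 CPM. The FIH-KO libraries lay within the range of the WT libraries, and the log2 fold change of -0.35 (95% interval -1.11 to 0.416, adjusted p = 0.5, edgeR) was about as large as its SE of 0.35. In hypoxia, WT libraries were at 31.9 and 26.4 CPM and FIH-KO libraries at 20.1 and 13.7 CPM. These did not overlap, and the log2 fold change was -0.79 (SE = 0.331), which missed the threshold (unadjusted p = 0.035, adjusted p = 0.097, edgeR). The normoxia estimate rested on replicate 1 of WT normoxia and was 0.426 without it. The hypoxia value passed the threshold in 4 of 15 alternatives: a filter of 1 read in any library, only the 4 hypoxia libraries, and without either WT normoxia library. Over all of them its adjusted p ran from 0.00091 to 0.37.

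Areg encodes amphiregulin, a ligand of the EGF receptor. Normoxia libraries were at 22.9 and 19.5 CPM in WT cells and at 9.59 and 10.7 CPM in FIH-KO cells. The groups were well apart, and Areg fell 2.08-fold (log2 fold change -1.06, SE 0.324, adjusted p = 0.029, edgeR). In hypoxia, WT libraries were at 63.6 and 83.8 CPM and FIH-KO libraries at 57.8 and 23.9 CPM. Replicate 1 of FIH-KO hypoxia came close to the lower WT library, and the log2 fold change was -0.85 (SE = 0.293, adjusted p = 0.048, edgeR). This call was lost in 10 of 15 alternatives, among them the omission of any library other than replicate 1 of FIH-KO hypoxia, with adjusted p up to 0.26. Omission of replicate 2 of FIH-KO hypoxia gave a log2 fold change of -0.345, and omission of replicate 1 gave -1.58. The normoxia call was lost in 5 of 15, with DESeq2 (adjusted p = 0.091) and without any 1 of the 4 normoxia libraries (adjusted p = 0.062 to 0.15).

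Tgfb2 encodes a ligand of the TGF-beta receptors and was sparsely counted. WT normoxia libraries held 35 and 41 counts (2.25 and 2.43 CPM) and FIH-KO normoxia libraries 11 and 9 counts (0.655 and 0.504 CPM). Tgfb2 fell 4.01-fold in normoxia, with a log2 fold change of -2 (SE = 0.405, adjusted p = 0.0034, edgeR). In hypoxia, the counts were 25 and 24 in WT cells (1.4 and 1.64 CPM) and 6 and 10 in FIH-KO cells (0.375 and 0.651 CPM). The groups were again apart, with a log2 fold change of -1.55 (SE = 0.44, adjusted p = 0.02, edgeR). The hypoxia call was lost in 4 of 14 alternatives, with DESeq2 (adjusted p = 0.079), without either WT hypoxia library (0.066 and 0.093) and without replicate 1 of FIH-KO hypoxia (0.13).

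Of the 3 members at the cell surface, Crim1 rose, and Axl and F3 did not pass the test. Crim1 encodes a transmembrane protein with cysteine-rich repeats that binds bone morphogenetic proteins. Its libraries were at 85.4 and 86.0 CPM in WT normoxia and at 151 and 163 CPM in FIH-KO normoxia. In hypoxia they were at 89.8 and 91.5 CPM in WT cells and 139 and 123 CPM in FIH-KO cells. WT libraries were closely spaced and all FIH-KO libraries lay above them. Crim1 rose by 0.88 on the log2 scale in normoxia (SE = 0.107, adjusted p = 0.00014) and by 0.53 in hypoxia (SE = 0.107, adjusted p = 0.0033, edgeR), and both calls held in 15 of 15 alternatives.

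Axl, a receptor tyrosine kinase that binds Gas6, did not pass the test between genotypes. WT normoxia libraries were at 638 and 626 CPM and FIH-KO normoxia libraries at 498 and 623 CPM. The log2 fold change was -0.17 in normoxia (95% interval -0.47 to 0.124, adjusted p = 0.38) and -0.25 in hypoxia (95% interval -0.547 to 0.0506, adjusted p = 0.2, edgeR). F3 encodes tissue factor, the receptor that initiates coagulation. Its WT and FIH-KO libraries overlapped in each oxygen condition, at 14.1 and 20.0 against 22.4 and 18.4 CPM in normoxia and at 26.7 and 27.1 against 35.6 and 25.1 CPM in hypoxia. The log2 fold changes of F3 were 0.26 (95% interval -0.195 to 0.707, adjusted p = 0.39) and 0.17 (95% interval -0.263 to 0.612, adjusted p = 0.56, edgeR).

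The intracellular members held both directions. Ankrd1, an ankyrin repeat protein that acts as a transcriptional cofactor, was at 4.88 and 5.15 CPM in WT normoxia and 1.49 and 1.85 CPM in FIH-KO normoxia. In hypoxia it was at 3.87 and 2.87 CPM in WT cells and 0.812 and 0.781 CPM in FIH-KO cells, the latter from 13 and 12 counts. All 4 FIH-KO libraries lay below all 4 WT libraries. Ankrd1 fell 3-fold in normoxia (log2 fold change -1.58, SE 0.298, adjusted p = 0.0023) and 4.22-fold in hypoxia (log2 fold change -2.08, SE 0.343, adjusted p = 0.0011, edgeR). Both calls held in 15 of 15 alternatives.

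Arhgef17, a guanine nucleotide exchange factor, was at 124 and 129 CPM in WT normoxia and 176 and 191 CPM in FIH-KO normoxia. In hypoxia it was at 87.9 and 80.8 CPM in WT cells and 116 and 124 CPM in FIH-KO cells. At each oxygen level the FIH-KO libraries lay above the WT libraries. The log2 fold change was 0.53 in normoxia (SE = 0.105, adjusted p = 0.0031) and 0.51 in hypoxia (SE = 0.106, adjusted p = 0.0043, edgeR). Without replicate 1 of WT normoxia, the adjusted p of the normoxia value was 0.063. Ajuba, a LIM-domain scaffold protein that restrains LATS kinases, was at 77.4 and 58.8 CPM in WT normoxia, 54.0 and 72.2 CPM in FIH-KO normoxia, 73.4 and 61.2 CPM in WT hypoxia and 63.8 and 56.5 CPM in FIH-KO hypoxia. Its libraries overlapped between genotypes, with log2 fold changes of -0.11 (95% interval -0.476 to 0.259, adjusted p = 0.67) and -0.16 (95% interval -0.533 to 0.205, adjusted p = 0.51, edgeR).

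**Figure D2:**
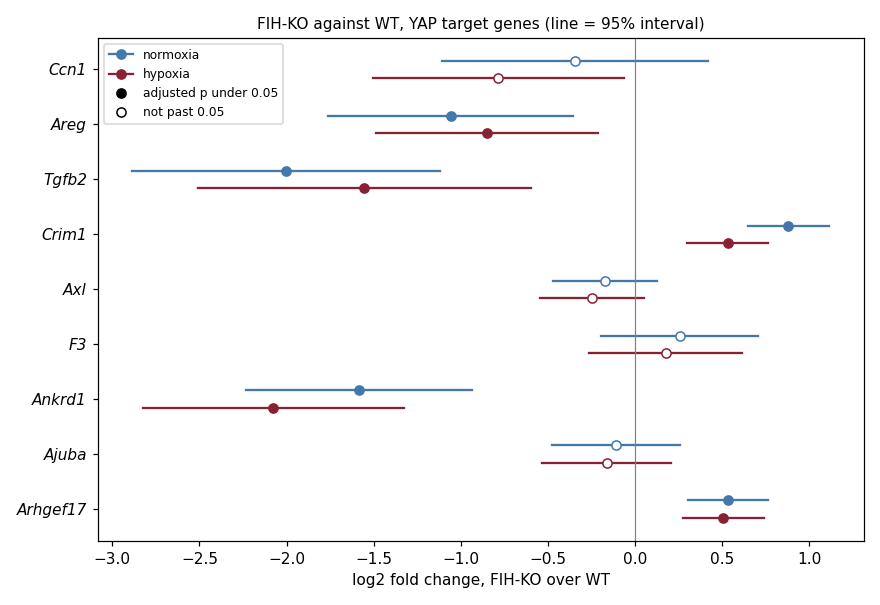
Log2 fold change of FIH-KO over WT (horizontal axis) of the 9 tested YAP target genes in normoxia (blue) and hypoxia (red), with lines for the 95% interval from edgeR. Filled points have an adjusted p under 0.05: Areg, Tgfb2 and Ankrd1 lie left of 0 and Crim1 and Arhgef17 right of 0 in both conditions.

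The effect of FIH loss was not shown to differ between oxygen conditions for any member. The difference between the hypoxia and the normoxia log2 fold change passed the test for 0 of 9 genes with edgeR, against 0% of all tested genes, and for 0 with DESeq2. At an unadjusted p under 0.05 there was 1 member, Crim1, whose increase was smaller in hypoxia by a log2 difference of -0.35 (95% interval -0.674 to -0.0193, unadjusted p = 0.04, adjusted p = 0.72). Over all tested genes edgeR gave 925 at that unadjusted level, and DESeq2 called 37. The intervals were wide for the low genes, at -1.49 to 0.507 for Ankrd1 and -0.903 to 1.80 for Tgfb2.

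In WT cells, Areg, Ccn1 and F3 rose in hypoxia and Axl and Arhgef17 fell, so 3 of 9 rose against 16.9% of all tested genes and 2 of 9 fell against 15.5%. In FIH-KO cells Areg rose and Axl and Arhgef17 fell, so 1 of 9 rose against 8.84% and 2 of 9 fell against 8%. The median log2 fold change of the 9 genes was -0.0147 in WT and -0.175 in FIH-KO cells, beside -0.00106 and -0.0267 over all tested genes. These comparisons share their libraries with the genotype comparisons above.

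With all libraries, Areg had the largest log2 fold change for oxygen of the 9 in each genotype. Without replicate 1 of WT normoxia, Ccn1 exceeded it in WT cells, at 1.97 against 1.87. From the CPM values given above, WT libraries went from at most 22.9 to at least 63.6 CPM and FIH-KO libraries from at most 10.7 to at least 23.9 CPM. Areg rose 3.47-fold in WT cells (log2 fold change 1.80, SE 0.305, adjusted p = 0.0011) and 4.02-fold in FIH-KO cells (log2 fold change 2.01, SE 0.321, adjusted p = 0.0015, edgeR), and both calls held in 15 of 15 alternatives. Its mean in FIH-KO hypoxia, 40.8 ± 24.0 CPM, was above that in WT normoxia, 21.2 ± 2.35 CPM (SD, n = 2 each), as was each of the 2 libraries.

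Ccn1 rose by 1.21 on the log2 scale in WT cells (SE = 0.337, adjusted p = 0.017), and its value in FIH-KO cells was 0.77 (SE = 0.346, adjusted p = 0.15, edgeR). The WT call was lost in 3 of 15 alternatives, with DESeq2 (adjusted p = 0.074), without replicate 1 of WT hypoxia (0.11) and without replicate 2 of WT normoxia (0.15). Its estimate was 0.653 without replicate 2 of WT normoxia and 1.97 without replicate 1. F3 rose by 0.66 in WT cells (SE = 0.206, adjusted p = 0.029), with 0.57 in FIH-KO cells (SE = 0.203, adjusted p = 0.074, edgeR). The F3 call in WT cells was lost without replicate 1 or 2 of WT hypoxia (0.12 and 0.11) and without replicate 1 of WT normoxia, where the estimate was 0.383 (adjusted p = 0.29). For each of these genes the hypoxia libraries lay above the normoxia libraries of the same genotype.

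Axl and Arhgef17 went the other way. Axl was at 393 and 353 CPM in WT hypoxia and 284 and 344 CPM in FIH-KO hypoxia, all below the normoxia libraries. Axl fell by 0.76 in WT cells (SE = 0.138, adjusted p = 0.0016) and by 0.84 in FIH-KO cells (SE = 0.138, adjusted p = 0.0018, edgeR). Arhgef17 fell by 0.59 in WT cells (SE = 0.106, adjusted p = 0.0016) and by 0.61 in FIH-KO cells (SE = 0.105, adjusted p = 0.0023, edgeR). Arhgef17 was lower in hypoxia and higher in FIH-KO cells. Its level in FIH-KO hypoxia (120.0 ± 5.79 CPM) was close to that in WT normoxia (127 ± 3.55 CPM, SD, n = 2 each).

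Of the other members, Ankrd1 had log2 fold changes of -0.57 in WT cells (95% interval -1.17 to 0.0373, adjusted p = 0.14) and -1.06 in FIH-KO cells (95% interval -1.86 to -0.264, adjusted p = 0.068, edgeR). For Tgfb2 they were -0.63 (adjusted p = 0.21) and -0.18 (adjusted p = 0.86), and for Crim1 0.08 (adjusted p = 0.6) and -0.27 (adjusted p = 0.11, edgeR). Ajuba stayed nearest to 0, at -0.01 (95% interval -0.382 to 0.353) and -0.07 (95% interval -0.439 to 0.299). Of the 9 tested genes, Ajuba was the only one whose 95% interval included 0 in all 4 comparisons, 2 of genotype and 2 of oxygen.

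**Figure D3:**
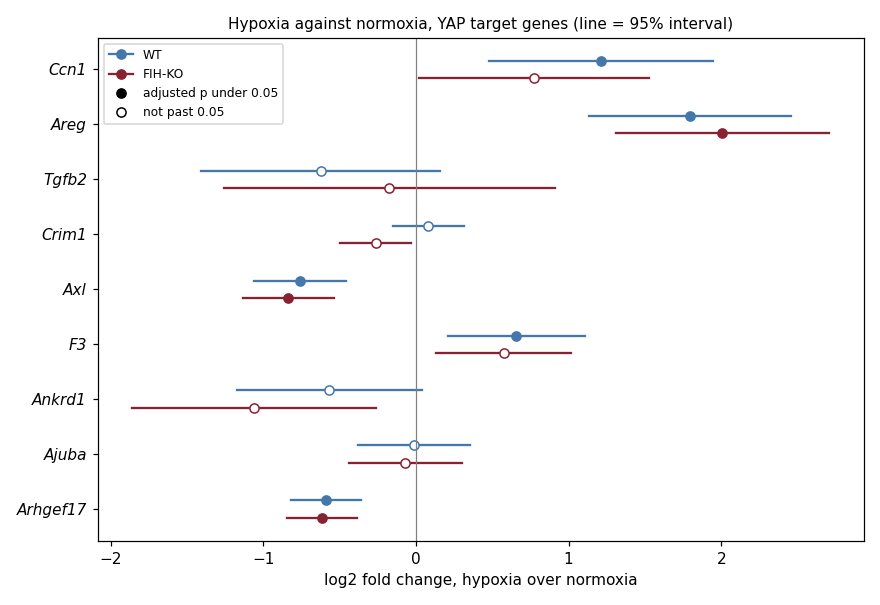
Log2 fold change of hypoxia over normoxia (horizontal axis) of the 9 tested YAP target genes in WT (blue) and FIH-KO cells (red), with lines for the 95% interval from edgeR. Filled points have an adjusted p under 0.05: Areg, at 1.80 and 2.01, lies farthest to the right, and Axl and Arhgef17 lie left of 0 in both genotypes.

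The promoters are shown because TEAD factors, through which YAP and TAZ act, bind sequences of the type GGAATG. The windows, from 250 bases before to 50 bases after the start site, come from RefSeq on GRCm38.p6, and 8 of the 10 members were matched, all but Ccn2 and Arhgef17. GGAATG, searched on both strands (CATTCC on the other) and overlapping no other motif searched, was found in 5 of 8 windows. Over all 32851 RefSeq windows of 300 bases, 14.7% held it, and 1.36% held it at least 2 times. Ankrd1 and Ajuba held 2 matches each, Ccn1, Crim1 and Axl held 1, and Areg, F3 and Tgfb2 held none. Shown here, 5′ to 3′ along each gene with matches in capitals, are Ankrd1 (chr19:36119795-36120094, minus strand), which fell and has 2 matches, Ccn1 (chr3:145649936-145650235, minus strand), Crim1 (chr17:78199998-78200297, plus strand), which rose and has 1 match, and Areg (chr5:91139349-91139648, plus strand), which fell in FIH-KO cells and has none.
Ankrd1: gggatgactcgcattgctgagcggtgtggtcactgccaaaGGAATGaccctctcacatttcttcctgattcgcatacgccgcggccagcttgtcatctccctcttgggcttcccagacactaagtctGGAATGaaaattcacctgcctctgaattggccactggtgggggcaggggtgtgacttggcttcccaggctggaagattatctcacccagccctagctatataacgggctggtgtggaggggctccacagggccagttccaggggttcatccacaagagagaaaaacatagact
Ccn1: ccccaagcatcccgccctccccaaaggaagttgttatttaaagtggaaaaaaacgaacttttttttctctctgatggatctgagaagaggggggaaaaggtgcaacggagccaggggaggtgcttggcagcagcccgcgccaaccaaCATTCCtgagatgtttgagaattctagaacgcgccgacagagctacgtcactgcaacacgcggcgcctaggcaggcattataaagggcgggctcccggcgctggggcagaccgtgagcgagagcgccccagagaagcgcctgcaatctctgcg
Crim1: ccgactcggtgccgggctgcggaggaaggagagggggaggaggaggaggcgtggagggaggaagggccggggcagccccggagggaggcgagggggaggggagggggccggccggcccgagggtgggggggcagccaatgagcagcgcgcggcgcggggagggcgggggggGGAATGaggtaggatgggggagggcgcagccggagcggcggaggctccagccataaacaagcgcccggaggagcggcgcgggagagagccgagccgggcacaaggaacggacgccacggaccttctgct
Areg: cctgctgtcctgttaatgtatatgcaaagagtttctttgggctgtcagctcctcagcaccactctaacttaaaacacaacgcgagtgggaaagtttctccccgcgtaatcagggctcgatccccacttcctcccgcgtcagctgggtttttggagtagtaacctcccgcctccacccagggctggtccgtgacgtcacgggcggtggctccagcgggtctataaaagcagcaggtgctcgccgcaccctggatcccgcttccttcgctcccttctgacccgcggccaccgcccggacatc

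The matches begin 210 and 123 bases before the start site in Ankrd1, 103 before it in Ccn1 and 79 before it in Crim1. Genes with and without a match were found among those that fell, and a match is not evidence of binding.

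The study lists qPCR primers for Ccn1, Ccn2, Ankrd1 and Areg, which show the part of each transcript that such an assay reads. By qPCR it reported lower Ccn1 (Cyr61), Ccn2 (Ctgf) and Areg in FIH-KO than in WT LLC cells, with technical replicates shown. In the counts Areg was called lower, Ccn1 was not called and Ccn2 was not tested. No qPCR values were analysed here. On GRCm39 the Ccn1 pair spans chr3:145353646-145353995 in exons 4 and 5 of 5 and gives a spliced product of 122 bases. The Ccn2 pair spans chr10:24472812-24473313 in exons 4 and 5 of 5 (131 bases), the Ankrd1 pair chr19:36092921-36094241 in exons 5 and 6 of 9 (122 bases) and the Areg pair chr5:91291513-91292263 in exons 3 and 4 of 6 (108 bases). All primers lie in coding exons, and the gene counts above cover whole genes.
Ccn1 forward: gtgaagtgcgtccttgtggaca
Ccn1 reverse: cttgacactggagcatcctgca
Ccn2 forward: tgcgaagctgacctggaggaaa
Ccn2 reverse: ccgcagaacttagccctgtatg
Ankrd1 forward: gcttagaaggacacttggcgatc
Ankrd1 reverse: gacatctgcgtttcctccacga
Areg forward: gcagatacatcgagaacctggag
Areg reverse: ccttgtcatcctcgctgtgagt

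In the genome (GRCm39, GENCODE), the members lie on 8 chromosomes. Ankrd1 (ENSMUSG00000024803.10) is at chr19:36089352-36097506, Areg (ENSMUSG00000029378.6) at chr5:91287451-91296291, Tgfb2 (ENSMUSG00000039239.15) at chr1:186354985-186438294 and Crim1 (ENSMUSG00000024074.9) at chr17:78507601-78684021. Ccn1 (ENSMUSG00000028195.5) at chr3:145352720-145355738 and F3 (ENSMUSG00000028128.14) at chr3:121516610-121528820 share chromosome 3, and Axl and Arhgef17 share chromosome 7. The tested genes around some members moved with genotype as well. For Ankrd1, 10 of its 10 nearest tested genes had negative log2 fold changes in both conditions, with medians of -0.809 in normoxia and -0.586 in hypoxia. Chromosome 19 as a whole was at -0.378 and -0.451, the lowest median of any autosome or X in each condition. Ankrd1 itself, at -1.58 and -2.08, lay below the medians of its neighbours and of its chromosome. For Ccn1 the 10 nearest were at -0.452 and -0.691, close to the -0.35 and -0.79 of Ccn1 itself.

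Around F3 the neighbours went against the gene, since 10 of 10 were lower in normoxia and 8 of 10 in hypoxia, with medians of -0.458 and -0.482, and F3 was at 0.26 and 0.17. Areg (neighbours -0.373 and -0.207) and Tgfb2 (neighbours -0.19 and -0.295) lay well below their surroundings. Around Crim1 the neighbours were higher, at 0.283 and 0.408, beside 0.88 and 0.53 for the gene. Around Arhgef17 they were at -0.129 and -0.0413, on the other side of 0 from the gene. The part that the level of a whole chromosome region in the FIH-KO cells plays in the values of its members was not tested.

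**Figure D4:**
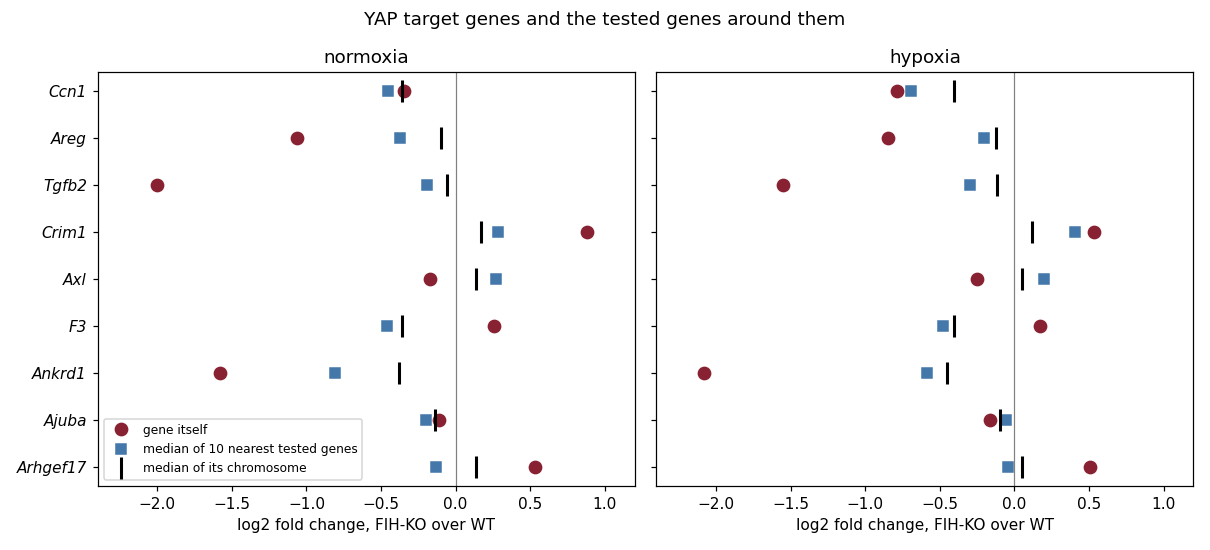
Log2 fold change of FIH-KO over WT (horizontal axis) in normoxia and hypoxia for each tested YAP target gene (circle), the median of its 10 nearest tested genes (square) and the median of its chromosome (bar). The medians around Ankrd1, Ccn1 and F3 lie left of 0, at -0.809, -0.452 and -0.458 in normoxia, and F3 itself lies right of 0.

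A further 14 genes of a common YAP/TAZ target list were examined beside the members. Of these, 12 were tested, and the median log2 fold change was 0.0546 in normoxia and -0.223 in hypoxia. In normoxia 1 rose and 2 fell, and in hypoxia 1 rose and 2 fell, while 9 did not pass the test in each condition. The background shares were those given above. Fjx1, whose fly relative is a Golgi kinase that acts on the cadherins Fat and Dachsous, fell in both. Its counts were 35 and 60 in WT normoxia and 12 and 25 in FIH-KO normoxia, and 75 and 45 in WT hypoxia and 10 and 8 in FIH-KO hypoxia. The log2 fold changes of Fjx1 were -1.45 (SE = 0.405, adjusted p = 0.019) and -2.66 (SE = 0.445, adjusted p = 0.0012, edgeR).

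Nt5e, which encodes the surface nucleotidase CD73, also fell in both but was near the floor. It had enough counts to be tested only through the WT normoxia libraries, where it was highest. Its place among the genes that fell and its adjusted p values are thus no independent support for a fall. WT normoxia libraries held 17 and 14 counts and FIH-KO normoxia libraries 2 and 2, and WT hypoxia libraries held 7 and 5 and FIH-KO hypoxia libraries 0 and 1. From the summed counts the ratio of FIH-KO to WT was 0.121 in normoxia (exact 95% interval 0.031 to 0.342) and 0.0863 in hypoxia (0.00202 to 0.583), which covers counting error only. The adjusted p was 0.0053 and 0.029 (edgeR). With Nt5e at these ratios the median of the list was the same, and it could not have changed, since Nt5e was the lowest gene either way. Amotl2, which encodes an angiomotin family member, rose by 0.62 in normoxia (SE = 0.188, adjusted p = 0.027), and Asap1, an Arf GTPase-activating protein, rose by 0.45 in hypoxia (SE = 0.103, adjusted p = 0.0068, edgeR).

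Upstream of the target genes, all 18 genes of the Hippo pathway list were tested. Amotl2 and Lats2 belong to this list and to the further targets above, so the rise of Amotl2 in normoxia is counted in both. In normoxia 3 rose and 2 fell (median log2 fold change 0.0139), and in hypoxia 2 rose and 2 fell (median 0.00891). Rises were called for 15.2% and 14.1% of all tested genes in these conditions and falls for 13% and 13.9%, close to the shares of the list. Amot stood far from the rest of the list. Its libraries were at 10.7 and 10.6 CPM in WT normoxia and 270 and 238 CPM in FIH-KO normoxia, and at 5.1 and 3.96 CPM in WT hypoxia and 110 and 196 CPM in FIH-KO hypoxia. All FIH-KO libraries exceeded all WT libraries, and Amot rose 23.8-fold in normoxia (log2 fold change 4.57, SE 0.247, adjusted p = 5.5e-07) and 33.5-fold in hypoxia (log2 fold change 5.06, SE 0.267, adjusted p = 9.5e-07, edgeR).

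The mRNAs of the coactivators themselves did not pass the test. Yap1 had log2 fold changes of -0.18 and -0.19 (adjusted p = 0.22 and 0.19), and Wwtr1, the gene for TAZ, 0.02 and -0.07 (adjusted p = 0.92 and 0.64, edgeR). Of the TEAD genes, Tead3 rose and Tead4 fell. Tead1, the most abundant of them at a mean of 346 CPM in WT normoxia, did not pass the test (adjusted p = 0.91 and 0.63, edgeR). Neither did Tead2 (adjusted p = 0.43 and 0.56, edgeR). Tead3 was at 9.0 and 9.42 CPM in WT normoxia and 21.9 and 25.0 CPM in FIH-KO normoxia, with a log2 fold change of 1.35 (SE = 0.166, adjusted p = 0.00016) and of 1.03 in hypoxia (SE = 0.171, adjusted p = 0.0011, edgeR). Tead4 was at 51.4 and 47.9 CPM in WT normoxia and 21.4 and 27.7 CPM in FIH-KO normoxia, with -1.01 (SE = 0.164, adjusted p = 9e-04) and -0.89 in hypoxia (SE = 0.163, adjusted p = 0.0019, edgeR). Nf2, the gene for merlin, an activator of the kinase cascade, fell by 0.50 and by 0.43 (adjusted p = 0.013 and 0.026, edgeR). Lats1, Lats2, Stk3, Stk4, Sav1, Mob1a and Mob1b did not pass the test in either condition.

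**Figure D5:**
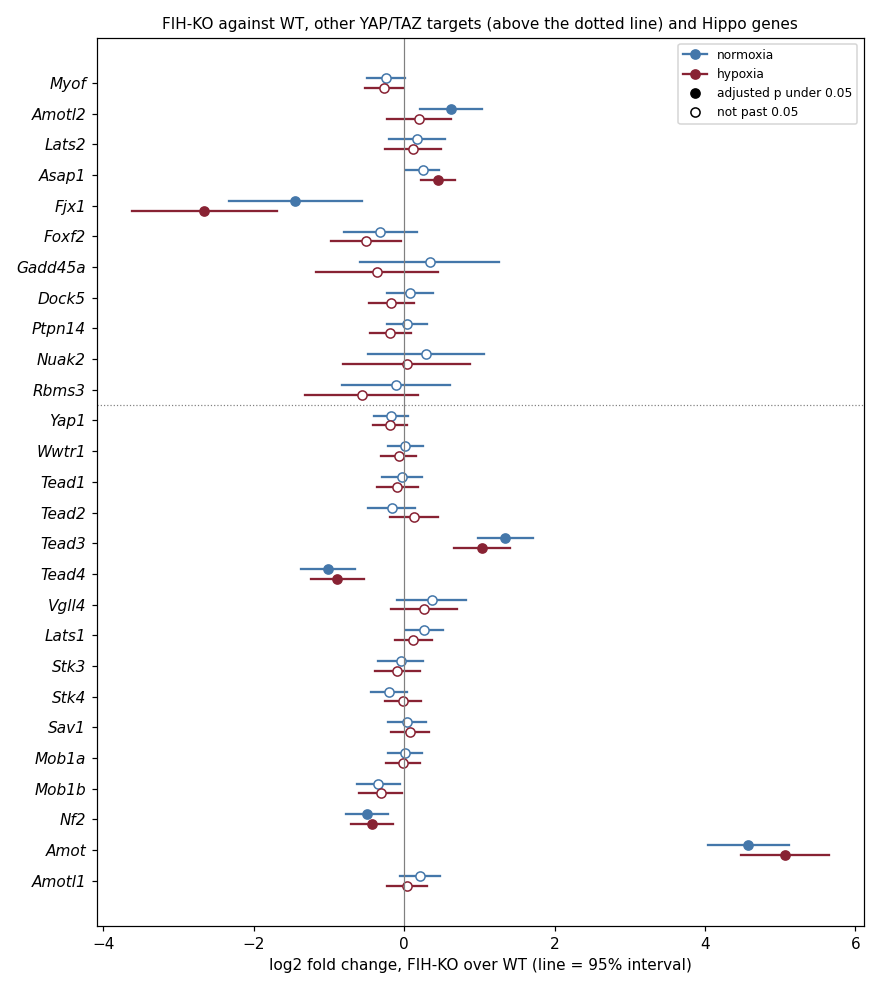
Log2 fold change of FIH-KO over WT (horizontal axis) in normoxia (blue) and hypoxia (red), with 95% intervals from edgeR, for 11 further YAP/TAZ targets (above the dotted line, Nt5e left out for its low counts) and 16 Hippo genes (below it). Filled points have an adjusted p under 0.05, and Amot lies farthest to the right at 4.57 and 5.06 while most genes lie near 0.

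Myc, a growth-promoting transcription factor named in the study beside the YAP target genes, fell with FIH loss. Its libraries were at 252 and 204 CPM in WT normoxia and 92.9 and 129 CPM in FIH-KO normoxia, and at 1170 and 750 CPM in WT hypoxia and 467 and 228 CPM in FIH-KO hypoxia. The FIH-KO libraries lay below the WT libraries of the same oxygen condition, and the log2 fold change was -1.04 in normoxia and -1.47 in hypoxia (edgeR, adjusted p = 0.02 and 0.0032).

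The genes most like Ccn1 and Ankrd1 across the libraries were sought as a description. Over the 8 libraries, and among genes averaging 50 counts or more, the log2 CPM of Ccn1 was most like that of Clasrp (Pearson r = 0.974), Dnajc25 (r = 0.956) and Trmt10c (r = 0.954) among 10575 genes. For Ankrd1 they were Pms2 (r = 0.996), Ranbp10 (r = 0.995) and Nt5dc2 (r = 0.994) among 10576 genes. The points are libraries of 4 groups that differ in genotype and oxygen level, and library depth differed as well. The part of these differences in the likeness was not tested. No member of any of the lists above was among these 6 genes. List members averaging fewer than 50 counts, such as Tgfb2 and Ccn2, could not have been found.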

How the data were processed

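RNA-Seq counts of 8 libraries of LLC cells were used, 2 in each of 4 groups taken from the sample labels. Per the study's methods, the authors made stranded mRNA libraries, used STAR for alignment to GRCm39 and HTSeq for counting. They deposited the raw gene counts, which are whole numbers and not normalized. The annotation release, strand setting and treatment of multimapping reads are not given in the sources used here, and the submitters' processing notes list both GRCm38 (mm10) and GRCm39 (mm39).

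The tests were made with edgeR 4.0.16 (R 4.3.3), using filterByExpr by group, TMM, one quasi-likelihood model of the 4 group means over all libraries, and Benjamini-Hochberg adjustment over the 13933 tested genes, with a threshold of 0.05. Replicates had a common biological coefficient of variation of 11.7%. Positions and lengths came from GENCODE for GRCm39, where 97.97% of identifiers matched.

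The members and lists were chosen with earlier results of these data known. Named genes were the 10 members, Hif1an, Amot and Myc, and up to 4 genes of each list called in 1 direction in both oxygen conditions, ranked by the smaller absolute log2 fold change, and the 3 genes most like Ccn1 and Ankrd1. Amotl2, Asap1, Yap1, Wwtr1, Tead1, Tead2 and the kinase genes were named after their values were seen. Alternatives, run for the members and in part for the counts of the lists, were DESeq2 1.42.0, other normalizations and filters, fewer libraries, the replicate number as a block, each library left out, and another transcript length.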

Additional observations from a re-analysis of the deposited data

How the results depend on the processing

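With only 2 libraries a group, depth and replicate spread limit the members of few counts, above all Ccn2, Tgfb2 and Ankrd1. Of the members called between genotypes, the directions of Ankrd1, Tgfb2, Areg, Crim1 and Arhgef17 held under every alternative that could be fitted. Tgfb2 had no value under the filter of at least 10 counts in every library, and Ccn2 none beyond its counts.

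The number of members called between genotypes in normoxia was 5, 4 with DESeq2, and 3 to 5 as libraries were left out (3 without WT normoxia replicate 1, where calls over all genes went from 3933 of 13933 to 1735 of 14645). In hypoxia it was 5, 3 with DESeq2, 3 with at least 10 counts in every library, and 3 to 5 as libraries were left out (3 without either WT hypoxia replicate, where calls over all genes went from 3896 to 2170 and 2380). For oxygen in WT cells it was 5, and 3 to 5 as libraries were left out (3 without WT hypoxia replicate 1, where calls over all genes went from 4509 to 2690). For oxygen in FIH-KO cells it was 3, 5 with a filter of at least 1 read in any library, and 3 to 4 as libraries were left out. Of the 2 other YAP/TAZ targets that fell in each oxygen condition, 1 was called with DESeq2 and 0 with at least 10 counts in every library, a filter that removes both genes. The cause was not tested for the other changes.

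Signs that turned as 1 library was left out belong to values that did not pass the test. In genotype comparisons they were Ccn1 in normoxia (-0.889 to 0.426), F3 in normoxia (-0.00278 to 0.511) and hypoxia (-0.0579 to 0.408), and Ajuba in normoxia (-0.359 to 0.0746) and hypoxia (-0.284 to 0.00745). For oxygen they were Ajuba in WT (-0.24 to 0.153) and FIH-KO cells (-0.246 to 0.177) and Tgfb2 in FIH-KO cells (-0.619 to 0.196). For the hypoxia minus normoxia difference of the genotype effect they were Ccn1 (-1.18 to 0.138), Areg (-0.5 to 0.711), Axl (-0.217 to 0.157), F3 (-0.302 to 0.212), Ajuba (-0.203 to 0.231) and Arhgef17 (-0.0817 to 0.0964, and 0.00205 with upper-quartile normalization and 0.00467 with at least 10 counts in every library). Over all genes tested for that difference, edgeR called 0, 143 with at least 1 read in any library, 5 with the replicate block, and DESeq2 37.

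The replicate numbers name no shared culture or day in the labels, and the deviations of same-numbered libraries correlated between -0.0104 and 0.193. A fit with the replicate block called 5 members in normoxia and 5 in hypoxia, the same members, and changed no other member's call.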
